A study of Mus musculus with 9 samples.

Results

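The genes that build cholesterol and fatty acids were followed in RiboSeq of BMDMs, mouse bone marrow-derived macrophages, which had been immortalized with c-myc and a mutant H-Ras. The 30 genes were chosen by name for their place in the pathways, with earlier results of these data known. All 30 were measured, among 16921 genes in all. RiboSeq sequences the stretches of mRNA that ribosomes shield from nuclease, so that the footprint level of a gene depends on both the amount of its mRNA and its translation, which cannot be told apart here. The cells were deficient in the product of the gene Zfp36, TTP (tristetraprolin), a protein that binds AU-rich sequences in 3′UTRs and speeds mRNA decay. They were transduced with tetracycline-inducible vectors for GFP, for GFP-TTP or for GFP-TTP-AA, in which the serines that the kinase MK2 phosphorylates are replaced with alanine. All 3 groups were deficient in endogenous TTP and received doxycycline (1 μg/ml) for 6 h and LPS (1 μg/ml) for 1 h. There were 3 libraries per condition and 9 libraries in all. Each condition was a separately transduced cell population, so the construct and the population that carries it cannot be told apart, and nothing in the sources used here says that the libraries of a condition came from separate cultures. P-values therefore rest on the error that the authors' model estimated from these libraries, whose spread may be technical.

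Cholesterol and fatty acids are both built from acetyl-CoA. In the cholesterol branch acetyl-CoA is condensed to HMG-CoA and turned into mevalonate, then into isoprenoid units, squalene and lanosterol, and through demethylation, isomerisation and reduction into cholesterol. In the fatty acid branch acetyl-CoA carboxylase makes malonyl-CoA, fatty acid synthase joins the units to palmitate, and elongases and desaturases modify the product. Both branches are governed by the SREBP transcription factors, which SCAP escorts from the endoplasmic reticulum to the Golgi for cleavage unless INSIG proteins hold them back when sterols are plentiful. SREBP-2, from Srebf2, acts mainly on cholesterol genes and SREBP-1, from Srebf1, mainly on fatty acid genes. In macrophages the LXR receptors oppose cholesterol accumulation by raising efflux and also drive Srebf1, and the lipids made here serve membranes and signalling after LPS.

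The deposited values are what the authors' model fitted for each library, and not observed counts. After gene-wise terms for the condition and for the replicate number and 1 term per library nothing was left of the log2 values (residual SD 1.64e-15). The 3 values of a condition therefore differ by a replicate-number term that is the same in every condition, and not by replicate error. Whether the values of conditions overlap thus follows from the size of the fold change and says nothing about how libraries reproduce it. The error of a comparison is the standard error (SE) that the authors' model gave for the gene. Levels below are fitted values divided by the size factor of the library, averaged geometrically over the 3 libraries of a condition, and fold changes are log2 differences of these levels. The fold changes were shrunken towards 0 by the authors' model, which lowers noisy changes most. The sum of the fitted values of a library ranged from 2570292 to 12804501, and 10103 genes with a mean level of at least 10 were kept, all 30 synthesis genes among them. Zfp36 had levels of 459, 927 and 1535 in GFP, GFP-TTP and GFP-TTP-AA macrophages, with log2 fold changes of 1.01 (adjusted p = 0.0048, Wald test) and 1.74 (adjusted p = 2.4e-09) against GFP and 0.73 (adjusted p = 0.040) between the TTP forms. The TTP vectors hold the coding sequence of TTP. In GFP-TTP and GFP-TTP-AA cells transgene footprints therefore cannot be told apart from those on what remains of the locus. GFP cells, with a level of 459, were given no TTP vector. All 7 macrophage markers examined were kept. Their summed level was 71789 to 85760 in the GFP-TTP libraries, below 88752 to 107439 in GFP and 99901 to 121975 in GFP-TTP-AA, and the part of this in the results was not tested. Most of the sum was Lyz2, with levels of 64036, 46032 and 71365 in GFP, GFP-TTP and GFP-TTP-AA cells, and 3 of the 7 markers (Ptprc, Itgam and Cd14) had a higher level in GFP-TTP than in GFP cells. None of the fibroblast, T cell, B cell and dendritic cell markers was kept, and of the granulocyte markers S100a8 was, with levels of 27.0, 25.6 and 55.8 in GFP, GFP-TTP and GFP-TTP-AA cells. Of the fat cell markers Fabp4, which macrophages also make, had levels of 1021, 840 and 921 in GFP, GFP-TTP and GFP-TTP-AA cells. Adipoq and Plin1 were not found by name among the genes measured. In bulk libraries, fewer cells of a type and fewer footprints per cell cannot be told apart.

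Because TTP acts on AU-rich sequences, the annotated 3′UTRs (GENCODE vM21, GRCm38) of the synthesis genes were searched for ATTTA and for the longer TATTTAT, on the mRNA strand. ATTTA was found in 22 of 30 genes, beside 70.8% of 9941 kept genes with a 3′UTR, and TATTTAT in 8 of 30, beside 30.7%. A TATTTAT match contains an ATTTA. The median 3′UTR was 1508 bases long in the synthesis genes and 1186 bases in the kept genes. The 8 genes were Fasn, Acaca, Elovl6, Srebf1, Insig1, Insig2, Sc5d and Hsd17b7, with 5 matches in Hsd17b7, 3 in Elovl6, 2 each in Insig1 and Insig2 and 1 in each of the others. The sites of the fatty acid genes Fasn and Acaca and of the sterol regulators Srebf1 and Insig1 are shown because the results below turn on the first pair and set them beside the second. Each is written 5′ to 3′ with TATTTAT in capitals.
Fasn, chr11:120807522-120807542, minus strand: attctcaTATTTATtgcattg
Acaca, chr11:84399875-84399895, plus strand: gattcagTATTTATtagccca
Srebf1, chr11:60199592-60199612, minus strand: atgaaatTATTTATaacttca
Insig1, first site, chr5:28077228-28077248, plus strand: gtaagaaTATTTATccagaat
Insig1, second site, chr5:28077802-28077822, plus strand: tcgtaaaTATTTATtttgtaa
A match is a description of the letters and not evidence of binding.

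Promoters were read from RefSeq windows on GRCm38.p6 that run from 250 bases before to 50 bases after a start site, and 24 of 30 genes had at least 1 window, 32 windows in all. TCACNCCAC, a form of the sterol regulatory element that SREBPs bind, matched on either strand in Hmgcs1 alone, beside 1.24% of 32851 windows. CCAAT, the box of the SREBP partner NF-Y, lay in 21 of 32 windows, beside 37.4% of all windows. GGGCGG, the box of Sp1, lay in 24 of 32, beside 35.7%, and CACGTG, the E-box, in 6 of 32, beside 7.15%. The short motifs can overlap, as they do in Fasn at position -62 from the start, where CCAAT and its reverse complement share bases. The Acaca window held none of these motifs, and neither did the Elovl6 window. The Acaca window, chr11:84195188-84195487, lies inside the annotated gene, which starts at chr11:84129672, and not at its annotated 5′ end. Hmgcs1 held 4 CCAAT and 3 GGGCGG matches besides its sterol regulatory element, and Fasn held 3 CCAAT matches, so that CCAAT is common to both. Scd1, also called below, had no window. The sterol regulatory element of Hmgcs1 and both CCAAT regions of Fasn are shown with the matches in capitals. The other matches of Hmgcs1 are not shown. Hmgcs1 is a sterol gene that was not called below and Fasn a fatty acid gene that was.
Hmgcs1 from position -137, chr13:119690207-119690229, plus strand: caccgtcTCACCCCACttcccag
Fasn from position -90, chr11:120824626-120824644, minus strand: cgccgccATTGGgccaccg
Fasn from position -62, chr11:120824595-120824616, minus strand: tcggtgtCCAATTGGtttcgat

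Footprints per length of coding sequence were compared to see on which genes of the pathway footprints were densest. This differs from the level itself, which in GFP cells was 3795 for Fasn and 1612 for Scd2. In GFP macrophages the median of the synthesis genes was 237 per kb, beside 145 per kb for 9968 kept genes, and the medians were 229 and 223 per kb in GFP-TTP and GFP-TTP-AA cells. Scd2, a desaturase that makes monounsaturated fatty acids, was highest with 1501 per kb in GFP, 1645 per kb in GFP-TTP, against 1309 per kb in GFP-TTP-AA cells. It was followed in GFP cells by Acly, which splits citrate to acetyl-CoA (738 per kb), the sterol isomerase gene Ebp (709 per kb), Sqle, whose product oxidises squalene (703 per kb), and Hmgcs1, the HMG-CoA synthase gene (663 per kb). These 4 levels lie close together, and levels per kb of different genes were not tested against each other.

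**Figure D1:**
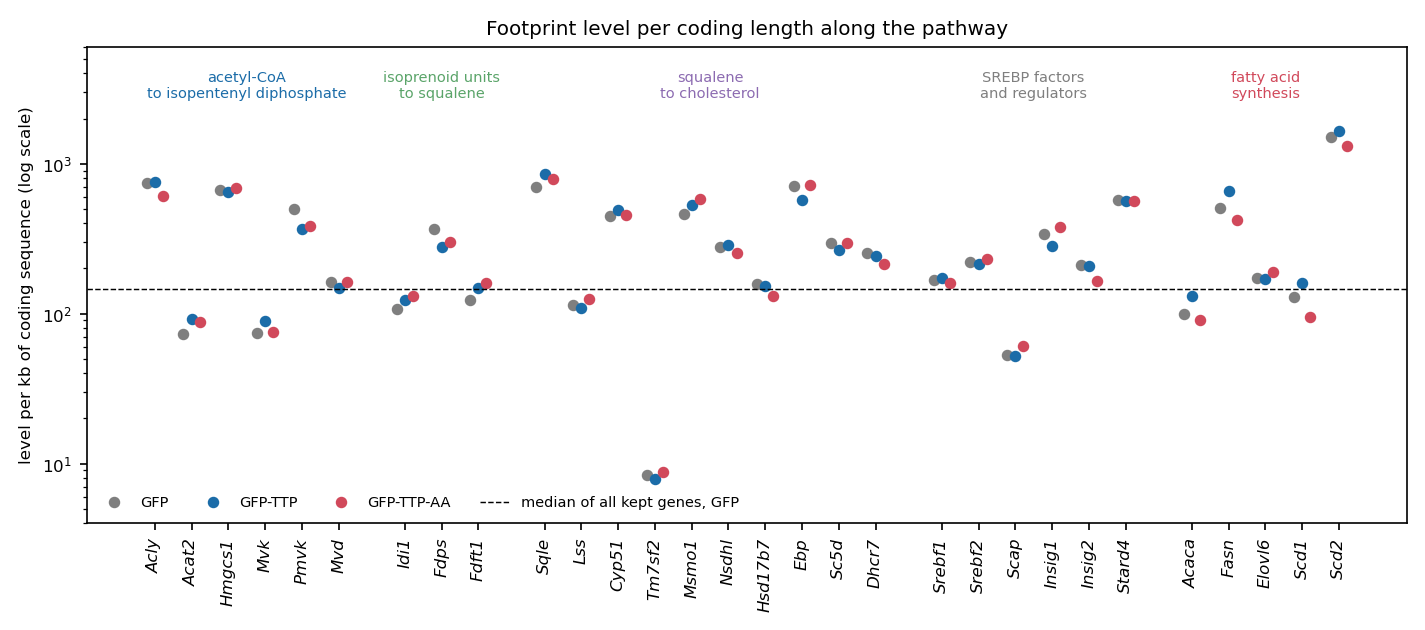
Footprint level per kb of coding sequence (log scale) of the 30 synthesis genes in pathway order, as the geometric mean of 3 libraries per condition, with the dashed line at 145 per kb, the median of all kept genes in GFP cells. Scd2 lies highest at 1309 to 1645 per kb and Tm7sf2 lowest at 7.93 to 8.72 per kb in the 3 conditions.

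At the other end stood Tm7sf2, a sterol reductase gene, with 8.39, 7.93 and 8.72 per kb in GFP, GFP-TTP and GFP-TTP-AA cells. Its mean level of 10.5 was just over the minimum. Scap (52.7 per kb in GFP cells), Acat2 (73.3 per kb) and the mevalonate kinase gene Mvk (73.9 per kb) came next. Of the transcription factors, Srebf2 had 220 per kb and Srebf1 167 per kb in GFP cells. Of the fatty acid genes Fasn (505 per kb) stood well above Acaca (99.5 per kb) and Scd1 (129 per kb) in the same cells. Of the stearoyl-CoA desaturase genes Scd2 thus had the higher level per kb, 1501 beside 129 for Scd1.

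Some of these genes have close copies elsewhere in the genome, and the authors' mapping kept up to 2 places per read. For each gene the windows of 28 bases in its coding sequence were looked up in the transcripts of all other genes. No window was shared in 20 of 30 genes, Fasn among them. In 8 genes at least 25% of the windows were shared, with 98.4% in Fdps, 79.6% in Idi1, 79.6% in Acat2, 77.8% in Acaca, 52.8% in Fdft1, 49.0% in Elovl6, 41.0% in Scd1 and 35.2% in Scd2. Of the Scd1 windows 27.1% were also in Scd2. The levels of these 8 genes are uncertain to the extent that reads were split with a copy or left uncounted. The gene that shared most windows with Acaca, Gm5182, was not found by name among the genes measured. Scd3, which shared most with Scd1, had a level of 0.414 in GFP cells.

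The first comparison, of GFP-TTP with GFP macrophages, asks what TTP changed in cells that lack it. No synthesis gene passed the test (0 of 29, beside 2.10% of 9938 genes; Wald test, adjusted p over all genes tested). Tm7sf2 was not tested here. At an unadjusted p under 0.05 there were 4 of 29 genes, beside 11.3% of all genes. The median log2 fold change was -0.02 in the synthesis genes and 0.00 in all genes, and 14 of 29 genes lay above 0. The median SE of the synthesis genes was 0.18, and the 95% intervals of all 29 stayed within 1 on the log2 scale, those of 15 within 0.5. The fold changes were shrunken, and the highest SE over all genes was 0.25. Intervals of uncalled genes are thus kept within 1 largely by the model, which says little about larger changes.

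The 4 genes were Fasn and Acaca, with higher levels in GFP-TTP cells, and Pmvk and Fdps, with lower ones. Fasn, the gene of fatty acid synthase, had levels of 3795 in GFP and 4968 in GFP-TTP cells, a log2 difference of 0.39 (SE 0.12), and missed the threshold of 0.05 narrowly with an adjusted p of 0.052 (Wald test). Acaca, the gene of acetyl-CoA carboxylase, had levels of 700 and 929, a log2 difference of 0.41 (SE 0.14, Wald test, adjusted p = 0.10). Both enzymes act one after the other at the start of fatty acid synthesis. Pmvk, the phosphomevalonate kinase gene, had levels of 286 in GFP and 212 in GFP-TTP cells, a log2 difference of -0.43 (SE 0.17, Wald test, adjusted p = 0.21). Fdps, the farnesyl diphosphate synthase gene, had 388 and 294, a log2 difference of -0.40 (SE 0.19, Wald test, adjusted p = 0.37). Both lie on chromosome 3, where the median over 467 genes was -0.18 in this comparison, and their differences from that median were -0.26 and -0.22.

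In the second comparison, of GFP-TTP-AA with GFP macrophages, again no synthesis gene passed the Wald test (0 of 30, beside 3.02% of 10103 genes). At an unadjusted p under 0.05 there were 4 of 30, beside 14.2% of all genes. These were Acly, Pmvk, Fasn and Scd1, and all 4 had lower levels in GFP-TTP-AA cells. The log2 difference was -0.28 (SE 0.12) for Acly, -0.37 (SE 0.17) for Pmvk, -0.26 (SE 0.12) for Fasn and -0.44 (SE 0.19) for Scd1, with adjusted p-values of the Wald test from 0.23 to 0.27. The median over the synthesis genes was -0.0013, beside 0.0044 over all genes. Intervals of all 30 genes stayed within 1 on the log2 scale, and the outermost bounds were -0.82 for Scd1 and 0.77 for Fdft1, the squalene synthase gene. As in the first comparison, the shrinkage and the limited SE largely set this. Both comparisons use the same GFP libraries, so that their values for a gene are not independent.

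The third comparison sets GFP-TTP-AA beside GFP-TTP macrophages and thus sets the mutant against the wild-type protein. Here 3 of 30 synthesis genes passed the Wald test, Fasn, Acaca and Scd1, and all 3 were lower in GFP-TTP-AA cells. Over all 10103 genes 10.3% were called, 4.66% as lower and 5.59% as higher, and 3 of 30 is close to that share. At an unadjusted p under 0.05 there were 5 of 30, beside 22.1% of all genes. By role the calls were less even. In the fatty acid group 3 of 5 genes were called as lower, 1 of 5 lay above 0 and the median was -0.54. Of 25 sterol enzymes and regulators 0 were called, and their median was 0.09. Acly (-0.31) and Srebf1 (-0.10), which also serve the fatty acid branch, were counted among these 25. Whether the groups differ was not tested, since the genes were chosen with results of these data known.

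**Figure D2:**
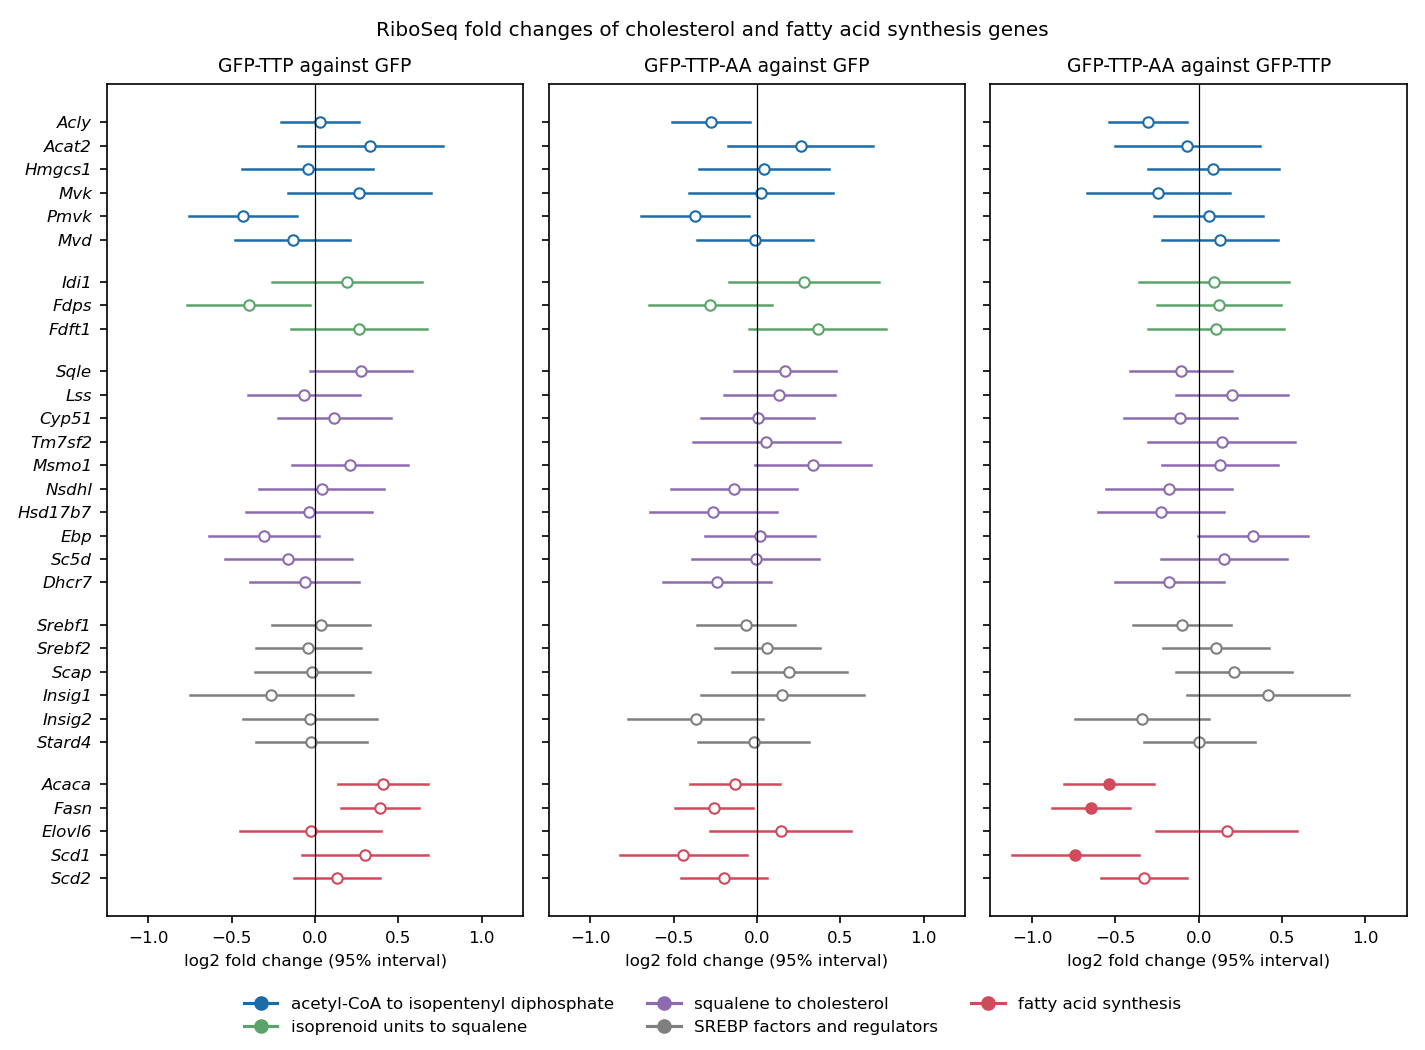
Log2 fold changes of the synthesis genes in the 3 comparisons, with 95% intervals from the standard errors of the authors' model, coloured by role. Filled points passed the adjusted Wald test: Acaca, Fasn and Scd1 in GFP-TTP-AA against GFP-TTP, at -0.54, -0.65 and -0.74.

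Fasn fell most clearly. Its values in libraries 1, 2 and 3 were 4527, 3550 and 3401 in GFP, 5942, 4645 and 4440 in GFP-TTP, and 3798, 2958 and 2837 in GFP-TTP-AA cells. The GFP-TTP and GFP-TTP-AA values did not overlap, and the GFP values lay between them and overlapped with both. The level was 0.638 times as high in GFP-TTP-AA as in GFP-TTP cells, a log2 fold change of -0.65 (SE 0.12, 95% interval -0.88 to -0.41, Wald test, adjusted p = 4.5e-06). Fasn lies on chromosome 11 (chr11:120805846-120824547, minus strand), and after the median of its chromosome was subtracted the fold change was -0.54 (Wald test, adjusted p = 0.00028). Of 47 other genes within 1 Mb none was called in this comparison, and none had a lower fold change than Fasn. Fasn, like Acaca and Scd1 below, was examined because it was called as lower in this same comparison. Its place below its neighbours was thus partly set in advance. Its 3′UTR holds the TATTTAT site shown above.

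Acaca makes the malonyl-CoA that fatty acid synthase uses, and fell too. In libraries 1, 2 and 3 it had 741, 670 and 691 in GFP, 986, 888 and 915 in GFP-TTP, and 678, 609 and 629 in GFP-TTP-AA cells. The GFP-TTP values lay above those of both other conditions, and the GFP and GFP-TTP-AA values overlapped. Relative to GFP-TTP the GFP-TTP-AA level was 0.687 times as high, a log2 fold change of -0.54 (SE 0.14, 95% interval -0.81 to -0.27, Wald test, adjusted p = 0.0023). Acaca is also on chromosome 11, over 1 Mb from Fasn, at chr11:84129672-84401651 on the plus strand. With the chromosome median of -0.11 subtracted it was at -0.43 (Wald test, adjusted p = 0.024), and of 27 other genes within 1 Mb 2 were called and none lay below it. Of these 2, Wfdc17 was higher, at 1.09 (SE 0.23), and Ccl3 was lower, at -0.42 (SE 0.14).

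Scd1, a stearoyl-CoA desaturase gene and a well-known target of SREBP-1 and LXR, was the least abundant of the called genes. Its values in libraries 1, 2 and 3 were 124, 147 and 142 in GFP, 153, 181 and 174 in GFP-TTP, and 91.7, 108 and 104 in GFP-TTP-AA cells. The fitted values were lowest in GFP-TTP-AA and highest in GFP-TTP cells, without overlap, but neither comparison with GFP was called. The log2 difference from GFP was 0.30 for GFP-TTP (Wald test, adjusted p = 0.60), or 0.12 with the chromosome median subtracted. For GFP-TTP-AA it was -0.44 (Wald test, adjusted p = 0.24). GFP-TTP-AA cells had 0.599 times the level of GFP-TTP cells, a log2 fold change of -0.74 (SE 0.19, 95% interval -1.12 to -0.36, Wald test, adjusted p = 0.0032). On chromosome 19 (chr19:44394455-44407879, minus strand) the median of 364 genes was -0.09, and with it subtracted the value was -0.65 (Wald test, adjusted p = 0.014). Of 18 other genes within 1 Mb 2 were called and none lay below Scd1. The 2 called, Peo1 at -0.68 (SE 0.20) and Got1 at -0.42 (SE 0.14), were lower too. Lzts2, not called, was at -0.65 (SE 0.25). Its 3′UTR of 3464 bases holds 5 ATTTA but no TATTTAT.

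**Figure D3:**
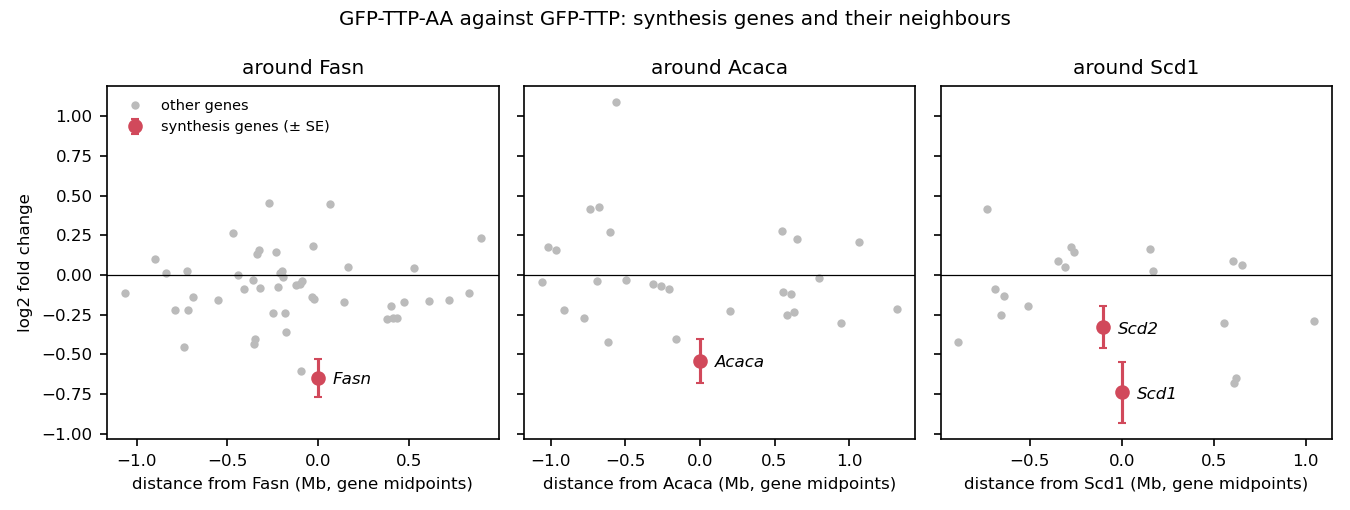
Log2 fold change of GFP-TTP-AA against GFP-TTP for kept genes within 1 Mb of Fasn, Acaca and Scd1, against the distance between gene midpoints; red points are synthesis genes with their SE and grey points are other genes. The called genes lie below every one of their 47, 27 and 18 neighbours, but they were chosen because they were called as lower in this same comparison. Around Acly and Scd2, not called and not centred here, 5 of 31 and 3 of 17 neighbours lay below the gene.

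The other genes of the fatty acid branch did not pass. Scd2, which lies next to Scd1 on chromosome 19, had values of 1818, 1694 and 1362 in GFP, 1998, 1856 and 1488 in GFP-TTP, and 1591, 1473 and 1185 in GFP-TTP-AA cells. These overlap between all conditions, and the log2 difference of GFP-TTP-AA and GFP-TTP was -0.33 (SE 0.13, 95% interval -0.59 to -0.07, Wald test, adjusted p = 0.092). Acly, which feeds both branches and lies on chromosome 11, had values of 2772, 2311 and 2258 in GFP, 2839, 2360 and 2301 in GFP-TTP, and 2300, 1905 and 1863 in GFP-TTP-AA cells. Its level was 2437 in GFP, 2489 in GFP-TTP, against 2014 in GFP-TTP-AA cells, with a log2 difference of -0.31 (SE 0.12, Wald test, adjusted p = 0.085) between the last pair. Elovl6, the elongase gene that acts on palmitate, had levels of 138, 136 and 152 in GFP, GFP-TTP and GFP-TTP-AA cells, and its log2 difference of GFP-TTP-AA and GFP-TTP was 0.17 (SE 0.22, 95% interval -0.26 to 0.59). It was the single fatty acid gene above 0 in this comparison and has 3 TATTTAT in its 3′UTR, which overlap in part.

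**Figure D4:**
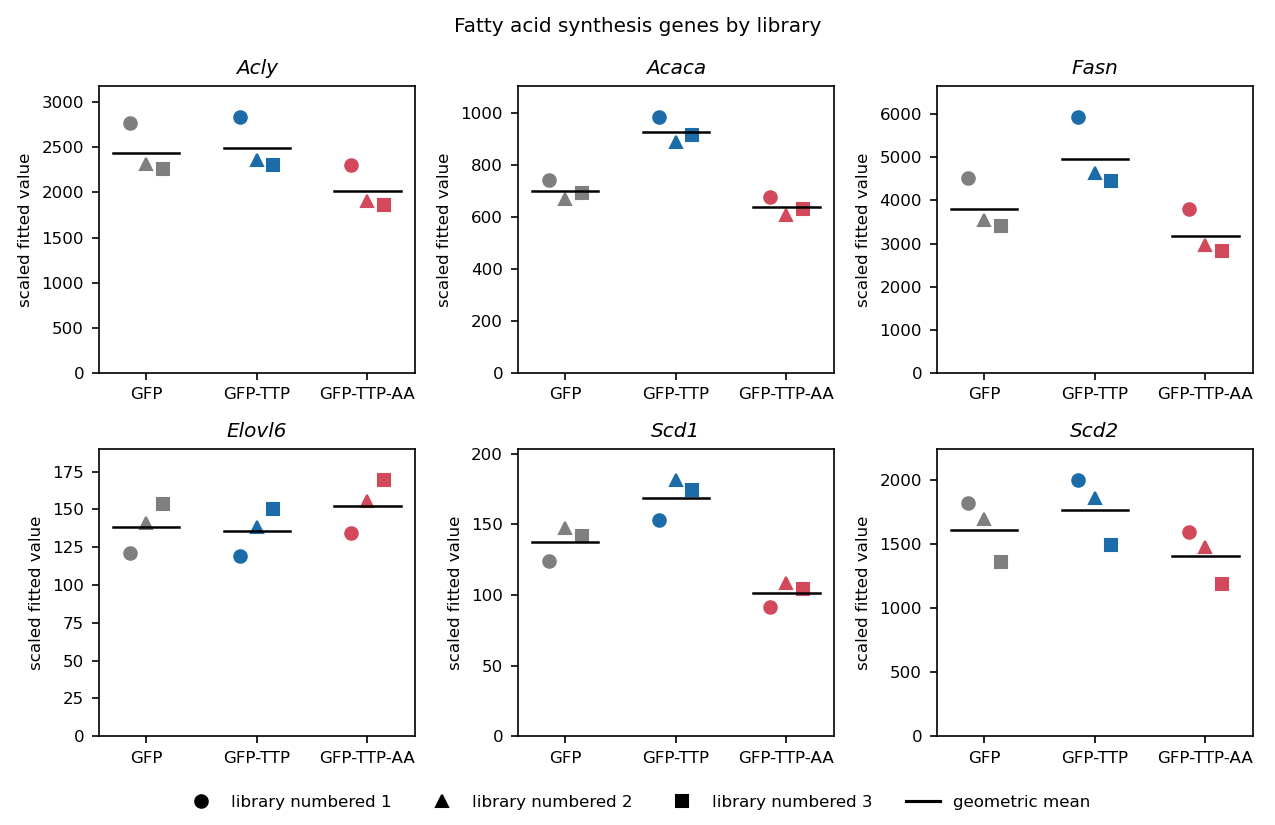
Scaled fitted values of Acly and the 5 fatty acid synthesis genes in each of the 9 libraries, with a black line at the geometric mean of the condition; libraries of a condition differ by the replicate-number term of the model. GFP-TTP values of Acaca, Fasn and Scd1 lie above the GFP-TTP-AA values without overlap.

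In the part of the sterol pathway that leads from acetyl-CoA through mevalonate to isopentenyl diphosphate, none of 6 genes was called in any comparison. They include Acly, whose values are given above. Hmgcs1 had levels of 1034, 1003 and 1065 in GFP, GFP-TTP and GFP-TTP-AA cells and log2 differences of -0.04 (SE 0.20) for GFP-TTP against GFP and 0.09 (SE 0.20) for GFP-TTP-AA against GFP-TTP. Acat2, which joins acetyl-CoA units, had levels of 87.3, 110 and 105 in the same order, and Mvk 90.2, 108 and 91.6. Pmvk, with 286, 212 and 221, and Mvd, the mevalonate diphosphate decarboxylase gene, with 196, 179 and 195, act after mevalonate. Among the genes from isoprenoid units to squalene the isomerase gene Idi1 had levels of 91.0, 104 and 111, Fdps 388, 294 and 319, and Fdft1 155, 186 and 199. GFP-TTP-AA against GFP-TTP differed by 0.09 to 0.12 on the log2 scale in these 3 genes.

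Of the 10 genes from squalene to cholesterol none was called in any comparison. Sqle, the gene of a rate-limiting enzyme of the pathway, had levels of 1206, 1459 and 1356 in GFP, GFP-TTP and GFP-TTP-AA cells. The log2 difference was 0.27 (SE 0.16, 95% interval -0.03 to 0.58, Wald test, adjusted p = 0.52) for GFP-TTP against GFP and -0.10 (SE 0.16, Wald test, adjusted p = 0.76) for GFP-TTP-AA against GFP-TTP. Lss, which closes the rings of lanosterol, had levels of 250, 239 and 275, and Cyp51, the lanosterol demethylase gene, 679, 736 and 681. The C4 demethylation genes Msmo1, with 404, 468 and 511, Nsdhl, with 301, 310 and 274, and Hsd17b7, with 171, 167 and 143, did not pass the test in any comparison. Ebp had the largest log2 difference of the group in the third comparison, 0.33 (SE 0.17, 95% interval -0.0044 to 0.66, Wald test, adjusted p = 0.24), with levels of 489, 395 and 495. Sc5d, a sterol desaturase gene, had levels of 266, 238 and 264, and Dhcr7, which completes cholesterol by the last reduction of its route, 362, 346 and 307.

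The factors and regulators of SREBP were not called either. Srebf2 had levels of 746, 726 and 779 and Srebf1 of 569, 584 and 544 in GFP, GFP-TTP and GFP-TTP-AA cells. For GFP-TTP-AA against GFP-TTP the log2 difference was 0.10 (SE 0.16, 95% interval -0.21 to 0.42) for Srebf2 and -0.10 (SE 0.15, 95% interval -0.40 to 0.19) for Srebf1. The SREBP escort gene Scap had levels of 202, 200 and 231, and Stard4, which encodes a sterol carrier, 385, 379 and 380. Insig1, itself an SREBP target, had levels of 263, 219 and 292 and a log2 difference of 0.42 (SE 0.25, 95% interval -0.07 to 0.90, Wald test, adjusted p = 0.33) for GFP-TTP-AA against GFP-TTP. Its SE was among the largest of all genes, for which the highest was 0.25. Insig2 lay on the other side in the same comparison, with levels of 143, 141 and 111 and a log2 difference of -0.34 (SE 0.21, 95% interval -0.74 to 0.06, Wald test, adjusted p = 0.34). Both Insig genes hold 2 TATTTAT in their 3′UTRs.

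The 8 genes with a TATTTAT and the 22 genes without were set side by side. The median log2 fold change was -0.03 and 0.03 for GFP-TTP against GFP, -0.10 and 0.02 for GFP-TTP-AA against GFP, and -0.16 and 0.07 in the third comparison, of the mutant with the wild-type protein. There, genes with a match ranged from -0.65 for Fasn to 0.42 for Insig1, and those without from -0.74 for Scd1 to 0.33 for Ebp. These medians are given as a description, without a test.

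Values also differed by the number of the library, which in fitted values is the same in every condition and has no error. In libraries numbered 3 the synthesis genes had a median deviation from the gene mean of 0.15 on the log2 scale, beside -0.0030 for all kept genes (SD over genes 0.19). They were at -0.09 in libraries numbered 1 and -0.04 in those numbered 2. The highest of the 3 numbers was number 3 for 21 of 30 synthesis genes, or 70% of them, beside 34.9% of all kept genes. By role these were 9 of 10 genes from squalene to cholesterol, 3 of 3 from isoprenoid units to squalene, 4 of 6 from acetyl-CoA to isopentenyl diphosphate and 4 of 6 SREBP factors and regulators. Acly, Pmvk and Srebf1 were lowest in number 3. The deviation in libraries numbered 3 was 0.53 for Fdps, 0.35 for Hmgcs1, 0.33 for Fdft1, 0.33 for Msmo1 and 0.32 for Acat2. Of the fatty acid genes 1 of 5 was highest in number 3, and Fasn and Scd2 were lowest there, at -0.16 and -0.25. A difference between the roles was not tested. What the number stands for is not given by the labels, while the methods name a library date in the model.

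**Figure D5:**
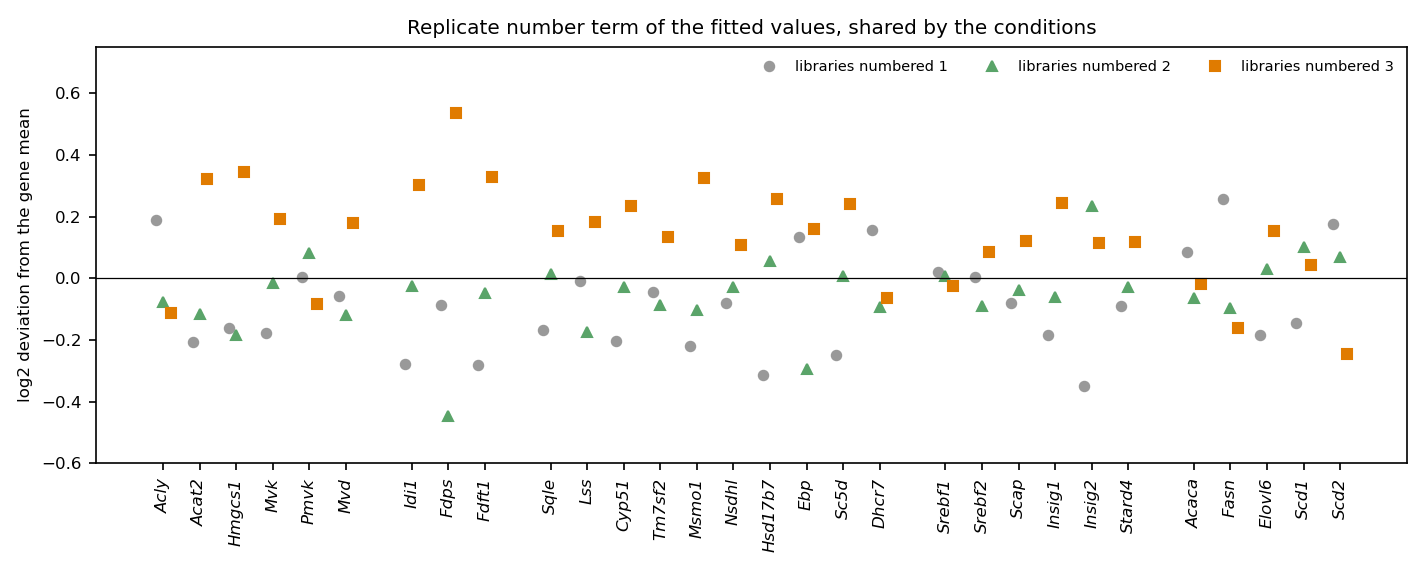
Log2 deviation from the gene mean in libraries numbered 1, 2 and 3, averaged over the conditions, for the 30 synthesis genes. In 21 genes, most of them sterol genes, the libraries numbered 3 are highest, with 0.53 in Fdps, while Fasn and Scd2 are lowest there.

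Further genes of lipid metabolism were examined in 5 lists, of which 44 genes were tested, and 8 of 44 were called in GFP-TTP-AA against GFP-TTP, beside 10.3% of all genes. Among 17 further fatty acid enzymes 4 were lower and 1 was higher in GFP-TTP-AA than in GFP-TTP cells, beside 4.66% lower and 5.59% higher over all genes, with a median of -0.12. Gpam, which starts triglyceride synthesis, had levels of 98.1, 133 and 83.6 in GFP, GFP-TTP and GFP-TTP-AA cells and fell by 0.67 on the log2 scale (SE 0.21, Wald test, adjusted p = 0.020) between the last pair. The desaturase genes Fads1 and Fads2 make polyunsaturated fatty acids. Fads1 had levels of 287, 459 and 304 and was higher in GFP-TTP than in GFP cells, with a log2 fold change of 0.68 (SE 0.16, Wald test, adjusted p = 0.0034), and lower in GFP-TTP-AA than in GFP-TTP cells, with -0.59 (SE 0.16, Wald test, adjusted p = 0.0054). Fads2 had levels of 501, 696 and 474, with -0.56 (SE 0.16, Wald test, adjusted p = 0.0076) in the third comparison. Gpam, Fads1 and Fads2 lie on chromosome 19, like Scd1 and Scd2. With the chromosome median of 0.18 in GFP-TTP against GFP subtracted, Fads1 was at 0.50 there and no longer called. With the median of -0.09 in the third comparison subtracted, Gpam was at -0.58 and no longer called. The acyl-CoA synthetase gene Acsl3, which fell outside the rule for named genes and is named because it completes the count, had a log2 fold change of -0.53 (SE 0.18, Wald test, adjusted p = 0.037) and was not called when the comparisons were adjusted together.

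The enzyme that was higher was Elovl1, an elongase of very long fatty acids, with levels of 631, 719 and 984. Its log2 fold change was 0.64 (SE 0.14, Wald test, adjusted p = 0.00060) for GFP-TTP-AA against GFP and 0.45 (SE 0.14, Wald test, adjusted p = 0.016) against GFP-TTP. Of 6 genes of sterol sensing by LXR and efflux 1 was called in both comparisons with GFP-TTP-AA, beside 3.02% of all genes against GFP and 10.3% against GFP-TTP. Nr1h3, the gene of LXRα, had values of 13.3, 12.9 and 15.0 in GFP, 12.6, 12.2 and 14.1 in GFP-TTP, and 28.9, 27.8 and 32.3 in GFP-TTP-AA libraries 1, 2 and 3. The GFP-TTP-AA values lay above all others, with a log2 fold change of 1.11 (SE 0.25, Wald test, adjusted p = 0.0011) against GFP and 1.19 (SE 0.25, Wald test, adjusted p = 8.2e-05) against GFP-TTP. In sterol transport and esterification 1 of 8 genes was called in the third comparison, close to the 10.3% of all genes. It was Npc2, which encodes a lysosomal cholesterol carrier. Its levels were 1436, 1153 and 1855 in GFP, GFP-TTP and GFP-TTP-AA cells, with 0.69 (SE 0.14, Wald test, adjusted p = 5.8e-05) in the third comparison.

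Ch25h makes 25-hydroxycholesterol, an oxysterol that holds SREBP back through INSIG, and was the 1 of 5 genes called in the list of side branches, beside 2.10% of all genes in GFP-TTP against GFP and 10.3% in the third comparison. In libraries 1, 2 and 3 it had 33.4, 36.0 and 66.5 in GFP, 15.7, 16.9 and 31.0 in GFP-TTP, and 30.9, 33.1 and 61.1 in GFP-TTP-AA cells. Libraries numbered 3 were high in every condition, and the ranges of GFP-TTP and GFP-TTP-AA overlapped slightly. GFP-TTP was lower than GFP by a log2 fold change of -1.09 (SE 0.25, Wald test, adjusted p = 0.0016), and GFP-TTP-AA was higher than GFP-TTP by 0.97 (SE 0.25, Wald test, adjusted p = 0.0025). Of 8 genes of SREBP processing and degradation none was called in any comparison by the Wald test, with 1, 2 and 1 at an unadjusted p under 0.05 in the 3 comparisons, beside 11.3%, 14.2% and 22.1% of all genes.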

How the data were processed

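RiboSeq libraries of 3 conditions with 3 libraries each were analysed. The authors trimmed reads with Trim Galore, mapped them with TopHat2 (version 2.0.12 in the submitters' processing notes) to mm10, counted them with HTSeq, and fitted the counts with DESeq2 1.6.3, with terms for library date and condition. The deposited table, taken here as a signal, holds what that model fitted (16932 lines, 16921 gene identifiers, 1 line without a name). The deposited comparison tables of the authors hold per-gene means, log2 fold changes with standard errors, Wald statistics and p-values. Of these only the standard error was used.

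Size factors, medians of ratios over genes, were 0.415 to 2.12. Genes with a scaled mean of at least 10 were kept. Log2 differences of geometric mean levels were divided by the standard errors (two-sided Wald test, normal reference), and p-values were adjusted by Benjamini-Hochberg over all kept genes of a comparison, threshold 0.05. Intervals are 95% intervals. Reads per library are not known here, so precision is given by the standard errors alone. The scripts (Python 3.11.15, scipy 1.17.1) were tested on simulated data.

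Members and lists were chosen with earlier results of these data known. All 30 genes are named. Those past the threshold, and Acly and Scd2, are given by library, and of the other lists at most 3 called genes per list and comparison are named, by size of change. Alternatives were other filters, joint adjustment, and medians of all genes or of the chromosome subtracted.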

Additional observations from a re-analysis of the deposited data

How the results depend on the processing

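Fasn, Acaca and Scd1 were lower and called in GFP-TTP-AA against GFP-TTP under every alternative run, namely no filter on the mean level, a minimum of 50, the median of all genes or of the chromosome subtracted, and joint adjustment over the comparisons. With joint adjustment 1 synthesis gene, Fasn, was called in GFP-TTP against GFP, with an adjusted p of 0.028, and the difference of Zfp36 between GFP-TTP-AA and GFP-TTP, 0.73 on the log2 scale, was no longer called (adjusted p = 0.065). The log2 differences of Acly and Scd2 in GFP-TTP against GFP, neither of them called, turned to -0.0019 and -0.043 when the chromosome median was subtracted. Of the other lipid genes the count called went from 2 to 1 in GFP-TTP against GFP, both with a minimum of 50, which leaves fewer genes tested, and with the chromosome median subtracted, and from 2 to 1 with a minimum of 50 and from 2 to 4 with joint adjustment in GFP-TTP-AA against GFP. In GFP-TTP-AA against GFP-TTP the count of other lipid genes was 8 and lay between 6 and 9 under the alternatives. There Ch25h and Nr1h3 were not tested with a minimum of 50, Gpam was lost with the chromosome median subtracted, and Acsl3 was lost with joint adjustment. The median of the synthesis genes ranged from -0.020 to -0.0019 in GFP-TTP against GFP, from -0.014 to -0.0012 in GFP-TTP-AA against GFP, and from 0.00071 to 0.031 in the third comparison over other filters, subtracted medians and pseudocounts of 1 and 10. No paired analysis was possible because the deposited values are fitted, already hold a replicate-number term and carry no replicate spread. For the same reason leaving out each library was not run as a test, since the libraries of every number hold the same fold change. How far the results depend on a single library therefore could not be examined.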
